A study of Mus musculus with 6 samples.

Results

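Cdkn1a encodes p21, a protein that binds cyclin-dependent kinases and holds cells out of division. Accessible chromatin at its locus was described as the peaks that the deposited annotation assigned to Cdkn1a and placed within 100000 bp of a start site of the gene. There were 17 such peaks among 175929 peaks in all, and no peak assigned to Cdkn1a lay farther away. The locus was singled out because of its change between oil and tamoxifen in these same libraries, so all oil and tamoxifen values of the 17 peaks are a description and no p-value is given for them. The outermost Cdkn1a peaks lay -5905 bp and 20307 bp from a start site. The next peak on the left, which was assigned to Trp53cor1, had 22.9 normalised tags in oil and 12.5 after tamoxifen, and the next on the right, assigned to Rab44, had 42.8 and 52.9.

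The cells were mouse leukaemia cells driven by AE9a, a truncated form of the RUNX1 fusion protein AML1-ETO, and all of them carried 1 floxed and 1 intact Usp18 allele (Usp18+/f) and the tamoxifen-inducible Cre UBCER-Cre. Recipient mice that had become sick received oil or tamoxifen, and GFP+ Lin- c-Kit+ leukaemia cells were sorted from the spleen 3 days after the first injection. ATAC-seq, in which a transposase cuts open chromatin, gave 3 libraries from oil-injected mice (Usp18+/f, replicates 1, 2 and 4) and 3 from tamoxifen-injected mice (Usp18+/Δ, replicates 1, 3 and 4). Every tamoxifen library had both the drug and the Cre, so loss of 1 Usp18 allele and exposure to tamoxifen cannot be told apart. UBCER-Cre is driven by a ubiquitin promoter that is active in most cell types, and the labels do not say whether the recipients' leukaemias came from 1 donor leukaemia or several. In bulk libraries such as these, a change in the share of cells with an open site and a change in opening within each cell cannot be told apart.

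Transcription of Cdkn1a is controlled largely at its start by p53, which binds response elements upstream of the gene after DNA damage and other stress, and p53-independent inputs act through GC boxes near the start that bind Sp1 and Klf factors. In blood, p21 restrains the cycling of stem and progenitor cells and accompanies the exit from division as cells mature. Open chromatin at a promoter marks a site that factors can reach, which is what ATAC-seq counts.

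Libraries held 57.4 M to 74.7 M tags in total and 17.5 M to 21.1 M tags in peaks, with medians of 45 to 57 tags per peak. The 17 Cdkn1a peaks together held 2711.5 to 3983 deposited tags per library, and a single peak held 10.5 to 626 tags. Normalised tags are the deposited tags divided by a size factor for each library. Pairs of oil libraries differed by 1.03 to 1.22 times the counting noise, given as chi-square per degree of freedom. Tamoxifen replicates 1 and 3 differed by 1.48 times that noise, and replicate 4 differed from each of them by 2.66 and 2.68 times, so replicate 4 stood apart and results are also given without it. The start peak of Kit held 757.2 normalised tags in oil and that of Gata2 325.8, both above the 93rd percentile of all peaks per 100 bp, while the peaks nearest the lineage genes Cd3e, Itgam and Klrb1c held 30.2 to 36.1 and that of Ly6g, -11326 bp from its start, 104.0. The start peak of Cd34, a gene of immature blood cells, rose from 94.6 to 269.9 tags (log2 change 1.50, DESeq2 adjusted p = 8.32e-12), and whether the mix of cells had a part in the Cdkn1a values was not tested. Of 15 peaks assigned to Usp18, 0 passed DESeq2's adjusted p under 0.05, where 1.22% of all peaks were higher after tamoxifen and 0.167% lower. In edgeR 0 passed, beside 2.40% and 0.521% of all peaks. At an unadjusted p under 0.05 there were 0, beside 6.18% and 2.84%. Log2 changes of the 15 peaks were -0.23 to 0.32. Since the labels do not give the floxed exons, these peaks do not check the deletion.

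Cdkn1a lies on the forward strand of chromosome 17 (mm10, chr17:29090976-29100727 in GENCODE M21) and has 2 annotated start sites. The upstream start, of transcript NM_001111099, is at chr17:29090979, and the downstream start, of NM_007669, lies 2790 bp farther in at chr17:29093769. The downstream start was the nearest for 14 peaks and the upstream start for 3, so distances below are from the downstream start unless the upstream one is named. By place, 3 peaks lay within 1000 bp of a start (promoter), 10 between there and the gene's end (gene body), 2 upstream of the gene and 2 downstream of it. The study called peaks in the oil and the tamoxifen libraries separately, and 12 of the 17 were in both lists, 3 in the oil list alone and 2 in the tamoxifen list alone.

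The sequences at both starts and in 3 further peaks carried matches to the searched motifs, some of which were shared between peaks. At the upstream start, the peak held 2 letter matches to the p53 decamer, 12 bases apart, and they are shown in capitals up to the base before the start (mm10, forward strand, chr17:29090806-29090978).

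upstream start peak: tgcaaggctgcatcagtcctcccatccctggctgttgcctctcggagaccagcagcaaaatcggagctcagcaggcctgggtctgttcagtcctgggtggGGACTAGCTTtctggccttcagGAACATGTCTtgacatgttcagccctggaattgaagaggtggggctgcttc

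The decamers lay -73 and -51 bp from the upstream start, counted to the first base of each. Directly after the decamer at -51 bp stand the bases tgacatgttc, which differ from the searched letters (RRRCWWGYYY) at their first base only. The search allowed no mismatch, so those bases are not in capitals, and the marked pair need not be the pair that p53 binds. A p53 decamer stood in the central 200 bp of 6.54% of the 175738 peaks searched, and a pair spaced by up to 13 bases in 0.0472%, which was 83 peaks. Among 32851 RefSeq promoters of GRCm38.p6, the same pair stood in 0.0731%. At the downstream start, no p53 decamer was found and 2 GC boxes (GGGCGG) stood -104 and -46 bp from the start (forward strand, chr17:29093625-29093768).

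downstream start peak: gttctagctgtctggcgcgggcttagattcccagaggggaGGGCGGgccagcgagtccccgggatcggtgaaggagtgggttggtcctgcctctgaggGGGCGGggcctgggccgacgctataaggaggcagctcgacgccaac

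GC boxes stood in 14.1% of peaks and in 35.7% of promoters. In intron 1, the peak 1814 bp from the start held an AP-1 motif (TGANTCA), which 6.61% of peaks had (forward strand, chr17:29095483-29095684).

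intron 1 peak at 1814 bp: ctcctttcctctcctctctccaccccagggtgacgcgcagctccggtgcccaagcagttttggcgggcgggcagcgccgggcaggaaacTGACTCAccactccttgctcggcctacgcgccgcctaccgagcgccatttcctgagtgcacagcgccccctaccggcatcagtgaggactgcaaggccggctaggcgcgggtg

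The same peak also held a GC box. Upstream of the gene, the weak intergenic peak -1733 bp from the upstream start held 2 matches to the AP-1 pattern. Both read TGAATCA, unlike the TGACTCA of the peak at 1814 bp, and matched only because the pattern leaves its middle base open. The first overlapped a GAS motif (TTCNNNGAA, in 4.85% of peaks) for STAT proteins (forward strand, chr17:29089129-29089363).

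upstream peak at -1733 bp: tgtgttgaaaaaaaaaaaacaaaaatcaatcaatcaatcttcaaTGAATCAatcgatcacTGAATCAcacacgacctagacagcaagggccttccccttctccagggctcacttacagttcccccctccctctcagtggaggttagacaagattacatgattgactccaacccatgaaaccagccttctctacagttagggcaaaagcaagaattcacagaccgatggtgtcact

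The other upstream peak, at -5905 bp from the upstream start, held a RUNX motif (TGTGGT, read here on the reverse strand as ACCACA), as did 18.7% of peaks (forward strand, central 200 bp, chr17:29084974-29085173).

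upstream peak at -5905 bp: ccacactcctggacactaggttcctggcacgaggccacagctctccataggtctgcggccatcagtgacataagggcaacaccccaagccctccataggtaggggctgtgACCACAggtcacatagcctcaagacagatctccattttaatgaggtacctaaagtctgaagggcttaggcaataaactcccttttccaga

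Both strands were searched for 11 motif patterns. Matches in the central 200 bp beside those shown were a GC box in the peak at 661 bp, a RUNX motif in the peak at 4573 bp and an NF-kB motif in the peak at 20307 bp. No match to ISRE (GAAANNGAAA), ERE, GRE (ACANNNTGT) or HSE was found in those windows, and 9 of the 17 peaks had no match to any of the patterns, 8 of them in the gene body. A match says only that the letters are there.

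Over all 17 peaks, summed tags were 2991, 2905 and 2883 in oil and 3850, 3850 and 3319 after tamoxifen. The tamoxifen sums all lay above the oil sums, with means of 2926 ± 57.04 and 3673 ± 306.6 (SD, n = 3 each), a ratio of 1.26 and a log2 ratio of 0.33. In the DESeq2 fit over all peaks, 6 peaks passed an adjusted p under 0.05 as higher after tamoxifen, against 1.22% of all peaks, and 0 as lower, against 0.167%. At an unadjusted p under 0.05 the counts were 12, against 6.18% of all peaks, and 0, against 2.84%, and past edgeR's adjusted p they were 8, against 2.40%, and 0, against 0.521%. With a fold change over 2 as well, 2 were higher, against 0.588% of all peaks, and 0 lower, against 0.0659%. In 14 peaks all 3 tamoxifen libraries lay above all 3 oil libraries, against 11.9% of all peaks, in 1 they all lay below, against 10.0%, and in 2 the groups overlapped. Since the locus was chosen from this contrast, nothing is read from these counts. Of the 15 peaks with a positive log2 change, the largest reached 1.19, and the median of all 17 was 0.55 beside -0.00 for all peaks tested.

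**Figure D1:**
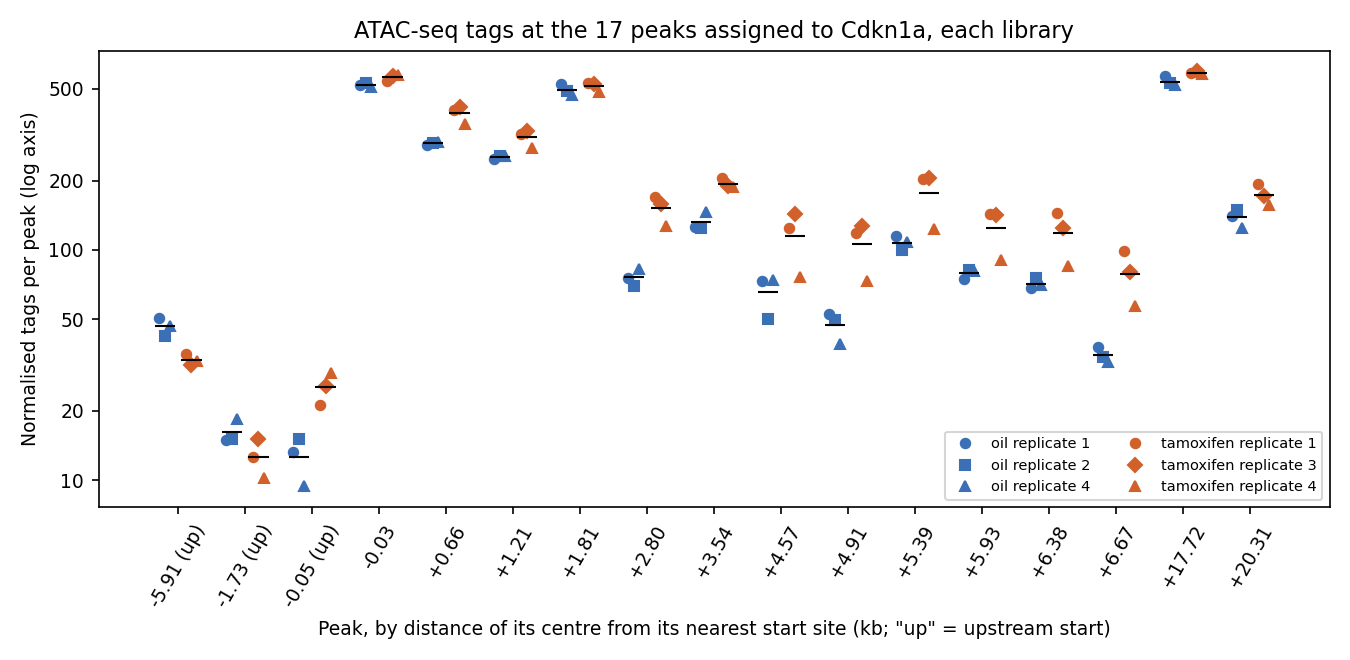
Normalised tags (log axis) in each of the 3 oil and 3 tamoxifen libraries at the 17 Cdkn1a peaks, in genomic order and named by their distance from the nearest start site; black bars are group means. The peaks at -34, 1814 and 17722 bp were high in all libraries, and the 8 gene body peaks from 2801 to 6672 bp had all tamoxifen points above all oil points.

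The peaks over the 2 start sites differed widely in level. The peak over the downstream start, at -34 bp (chr17:29093625-29093846), reaches into the first exon and 5′ UTR of NM_007669 and also lies within an exon of AC167363.2, an unclassified transcript on the opposite strand, whose signal ATAC-seq cannot separate. It held 522.3, 530.5 and 511.1 normalised tags in oil and 543.2, 569.9 and 572.2 after tamoxifen. The groups did not overlap, but the means of 521.3 ± 9.70 and 561.8 ± 16.1 (SD, n = 3 each) were close, with a log2 change of 0.11 (SE 0.0904). Per 100 bp it was at the 96.8th percentile of all peaks in oil, so the main promoter was among the more open sites of the cells from oil-injected mice.

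The peak over the upstream start, at -51 bp from it (chr17:29090806-29091051), holds the p53 decamers and was barely open. It held 13.2, 15.1 and 9.41 tags in oil and 21.3, 25.6 and 29.3 after tamoxifen. All tamoxifen values lay above all oil values, and the means were 12.6 ± 2.91 and 25.4 ± 4.04 (SD, n = 3 each). The log2 change of 1.03 had an SE of 0.446. This peak was in the tamoxifen peak list alone, which favours higher tamoxifen values. In oil it stood at the 0.640th percentile per 100 bp. Replicate 4, the tamoxifen library lowest at most Cdkn1a peaks, was the highest of the 3 here. Relative to the downstream start peak of the same library, the upstream start peak had 0.0241 ± 0.00516 tags per tag in oil and 0.0451 ± 0.00606 after tamoxifen (SD, n = 3 each), a measure that does not depend on the size factors. 

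The third promoter peak, in intron 1 at 661 bp (chr17:29094257-29094603), moved more than the start itself and is named after its values were seen. This peak also overlaps the exon of AC167363.2 on the opposite strand, by 205 bases. Its mean was 290.4 tags in oil and 391.3 after tamoxifen, a log2 change of 0.43 (SE 0.114). Summed over the 3 promoter peaks, tags were 824.3 ± 12.3 in oil and 978.5 ± 31.5 after tamoxifen (SD, n = 3 each), a log2 ratio of 0.25 that was 0.27 without tamoxifen replicate 4.

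The gene body held the larger changes. Its 10 peaks summed to 1395, 1331 and 1361 tags in oil and to 2054, 2022 and 1584 after tamoxifen. The groups did not overlap, and the log2 ratio of the means was 0.47, or 0.58 without tamoxifen replicate 4, which was the lowest tamoxifen library at 10 of the 10 peaks. With a promoter limit of 3000 bp in place of 1000 bp, 7 peaks remained in the gene body and the log2 ratio was 0.76.

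Compared with those farther in, the peaks nearest the start in the gene body changed less. The most open of them, in intron 1 at 1814 bp (chr17:29095483-29095684), held 524.5, 488.5 and 471.3 tags in oil and 528.7, 523.7 and 486.5 after tamoxifen. The groups overlapped, with means of 494.8 ± 27.2 and 513.0 ± 23.04 (SD, n = 3 each) and a log2 change of 0.05 (SE 0.0960), so this site, at the 97.1st percentile of all peaks per 100 bp in oil, differed by less than the spread between libraries. The peak at 1209 bp had a log2 change of 0.28 (SE 0.123), with all tamoxifen libraries above all oil libraries.

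Farther in, from 2801 bp to the end of the gene, each of 8 peaks had all tamoxifen libraries above all oil libraries. The peak in exon 2 at 4913 bp (chr17:29098538-29098827), which lies whole within the coding sequence, held 52.9, 49.7 and 39.0 tags in oil and 118.4, 126.5 and 73.1 after tamoxifen. Its means of 47.2 ± 7.32 and 106.0 ± 28.8 (SD, n = 3 each) gave a log2 change of 1.16 (SE 0.253), and without replicate 4 it was 1.38. The last peak of the gene, in the 3′ UTR at 6672 bp (chr17:29100327-29100556), was in the tamoxifen peak list alone. It held 38.1, 34.1 and 32.7 tags in oil and 98.6, 80.2 and 57.3 after tamoxifen. Replicate 4 was again between the oil libraries and the other tamoxifen libraries, and the means of 35.0 ± 2.77 and 78.7 ± 20.7 (SD, n = 3 each) gave a log2 change of 1.19 (SE 0.277), the largest of the locus.

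The remaining 6 of these 8 peaks had means of 65.8 to 132.1 tags in oil and 114.9 to 193.7 after tamoxifen, with log2 changes of 0.55 to 1.00 and SEs of 0.155 to 0.244. Among them the intron 1 peak at 2801 bp (chr17:29096395-29096746), singled out after its values were seen, held 75.6, 69.7 and 82.4 tags in oil and 170.1, 157.7 and 127.6 after tamoxifen. Its log2 change of 1.00 (SE 0.192) was just short of a fold change over 2.

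Taken as a group after their values were seen, the 8 peaks summed to 614.1 ± 25.2 tags in oil and 1065 ± 213.5 after tamoxifen (SD, n = 3 each), a ratio of 1.73. Tamoxifen replicates 1, 3 and 4 stood at 1.97, 1.90 and 1.33 times the oil mean. For each tag at the downstream start peak of the same library, these peaks held 1.19, 1.10 and 1.24 tags in oil and 2.22, 2.05 and 1.43 after tamoxifen. Replicate 4 was nearest to oil on this scale too, which needs no size factor and, with the peaks grouped after their values were seen, is a description. Across the 12 promoter and gene body peaks that were nearest the downstream start, the log2 change went up with distance from that start (Pearson 0.739, Spearman 0.713). This is a description, because the locus was chosen from this contrast and the peaks share libraries and neighbouring sequence. Also, the farthest peak, at 6672 bp, was in the tamoxifen peak list alone, and the peak at 4573 bp in the oil list alone.

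**Figure D2:**
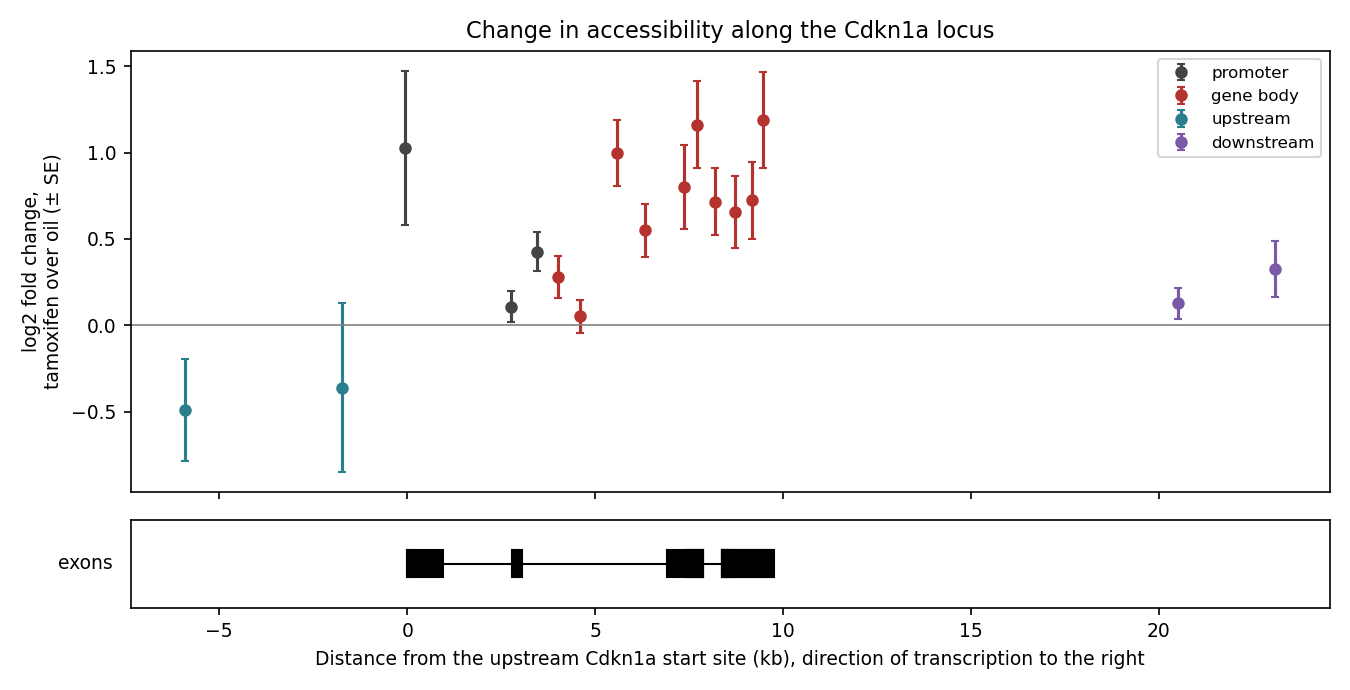
DESeq2 log2 fold change of tamoxifen over oil (± SE) at the 17 Cdkn1a peaks against distance from the upstream start site, with the exons of all annotated transcripts drawn below. The peaks of the downstream start region lay at 0.05 to 0.43, the 8 peaks that follow in the gene body at 0.55 to 1.19, and the 2 upstream peaks below 0. Both upstream peaks were in the oil peak list alone.

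CpG content varied along the locus. In 5 peaks there were 11 to 18 CpG in their central 200 bp, where the median of all peaks was 3 and 12.7% of peaks had 10 or more. Of these, 4 were the consecutive peaks from -34 to 1814 bp with log2 changes of 0.05 to 0.43, and the other was the coding exon 2 peak at 1.16. The 12 peaks with 1 to 4 CpG had log2 changes of -0.49 to 1.19, so the ranges of the CpG-rich and CpG-poor peaks overlapped. Level in oil was not tightly related to the change, with a Pearson correlation of -0.22 and a Spearman correlation of -0.42 between the log2 change and log2 oil tags per 100 bp over the 17 peaks, which is a description.

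**Figure D3:**
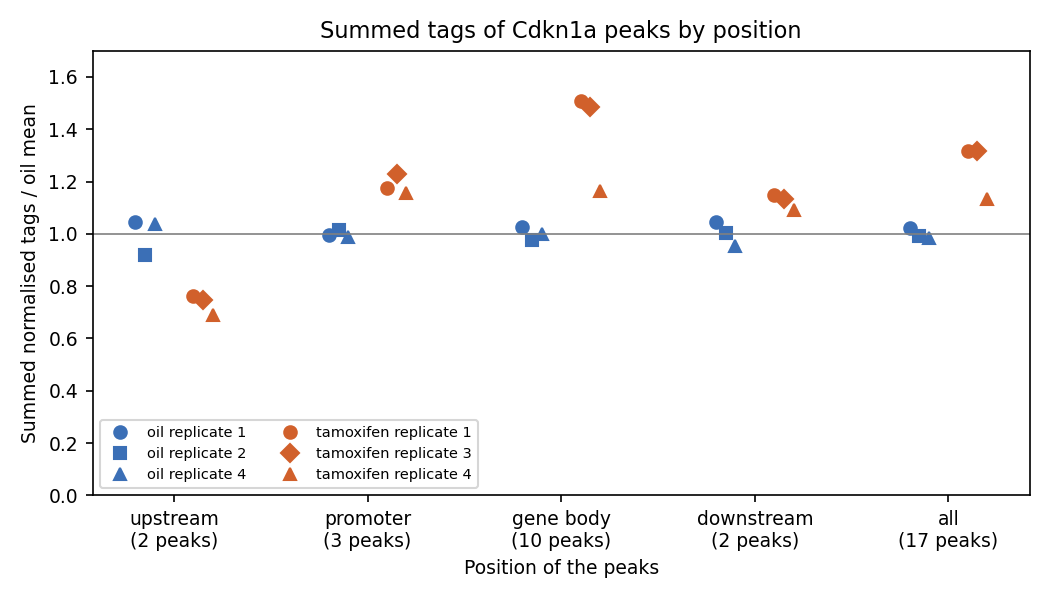
Summed normalised tags of the Cdkn1a peaks by position, each library divided by the oil mean of that position. The gene body sums of the tamoxifen libraries reached 1.51, 1.48 and 1.16, the promoter sums 1.16 to 1.23, and the upstream sums 0.690 to 0.763. The upstream peaks were in the oil peak list alone.

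The 4 peaks outside the gene did not move together. The most open one, intergenic at 17722 bp (chr17:29111363-29111620), held 567.5, 529.0 and 519.2 tags in oil and 584.3, 595.5 and 582.9 after tamoxifen. Its groups were narrowly apart, with means of 538.6 ± 25.6 and 587.6 ± 6.93 (SD, n = 3 each) and a log2 change of 0.13 (SE 0.0899). It was at the 95.8th percentile of all peaks per 100 bp in oil and held no match to the searched motifs. The other downstream peak, at 20307 bp, overlaps the first annotated exon of Rab44 by 47 bases, although the deposited annotation assigned it to Cdkn1a, and its log2 change was 0.32 (SE 0.161).

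Upstream, both peaks were weak and in the oil peak list alone, which favours higher oil values. The peak at -5905 bp (chr17:29084722-29085426) held 50.7, 42.4 and 46.6 tags in oil and 35.3, 31.8 and 33.1 after tamoxifen. It was the 1 peak of the locus with all tamoxifen libraries below all oil libraries, with means of 46.6 ± 4.16 and 33.4 ± 1.78 (SD, n = 3 each) and a log2 change of -0.49 (SE 0.297). The peak at -1733 bp (chr17:29089129-29089363) held 14.9, 15.1 and 18.4 tags in oil and 12.6, 15.04 and 10.2 after tamoxifen, so its groups overlapped, with means of 16.1 ± 1.95 and 12.6 ± 2.40 (SD, n = 3 each) and a log2 change of -0.36 (SE 0.489). Summed, the upstream peaks had a log2 ratio of -0.45, the downstream peaks 0.17 and all 4 together 0.13.

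Replicate 4 of the tamoxifen group was the lowest of its group at 14 of the 17 peaks. Without it, the 6 peaks past the adjusted p all remained and 3 more passed, and the summed log2 ratio over the locus was 0.40. Only 1 peak passed when oil replicate 4 or either of the other tamoxifen libraries was left out, 2 when oil replicate 2 was and 3 when oil replicate 1 was. All 17 peaks kept the sign of their log2 change in every alternative that was run.

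The neighbours within 100000 bp of the upstream start were 104 peaks of other genes, of which 0 passed the adjusted p in the DESeq2 fit, where 1.22% of all peaks were higher and 0.167% lower. In edgeR 2 passed as higher, 1.92% beside 2.40% of all peaks, and 0 as lower, beside 0.521%. At an unadjusted p under 0.05, 11 were higher, 10.6% beside 6.18%, and 0 lower, beside 2.84%. Trp53cor1, the p53-induced noncoding RNA lincRNA-p21 that is transcribed away from Cdkn1a, had 15 peaks with a median log2 change of 0.15. Its start peak held 65.9 ± 9.04 tags in oil and 96.4 ± 2.05 after tamoxifen (SD, n = 3 each), a log2 change of 0.55 (SE 0.215) that did not pass. Rab44, a Rab GTPase gene on the other side, had 34 peaks with a median of 0.30, and 5 of them, from 56717 to 61626 bp and picked out after their values were seen, had log2 changes of 0.92 to 1.34 at only 12.9 to 26.2 tags in oil. The splicing factor gene Srsf3 had 46 peaks with a median of 0.03. Widened to 500000 bp, 358 peaks of 25 genes gave 1 higher peak and 0 lower, 0.279% beside the 1.22% of all peaks, with a median of -0.00. In edgeR these were 4 and 0, 1.12% and 0% beside 2.40% and 0.521% of all peaks. At an unadjusted p under 0.05 they were 22 and 13, 6.15% and 3.63% beside 6.18% and 2.84%. The 1 higher peak of the DESeq2 fit was in intron 2 of Mapk14, which encodes the stress kinase p38α. It held 62.1 ± 7.54 tags in oil and 135.2 ± 46.4 after tamoxifen (SD, n = 3 each), a log2 change of 1.12 (DESeq2 adjusted p = 0.00118).

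**Figure D4:**
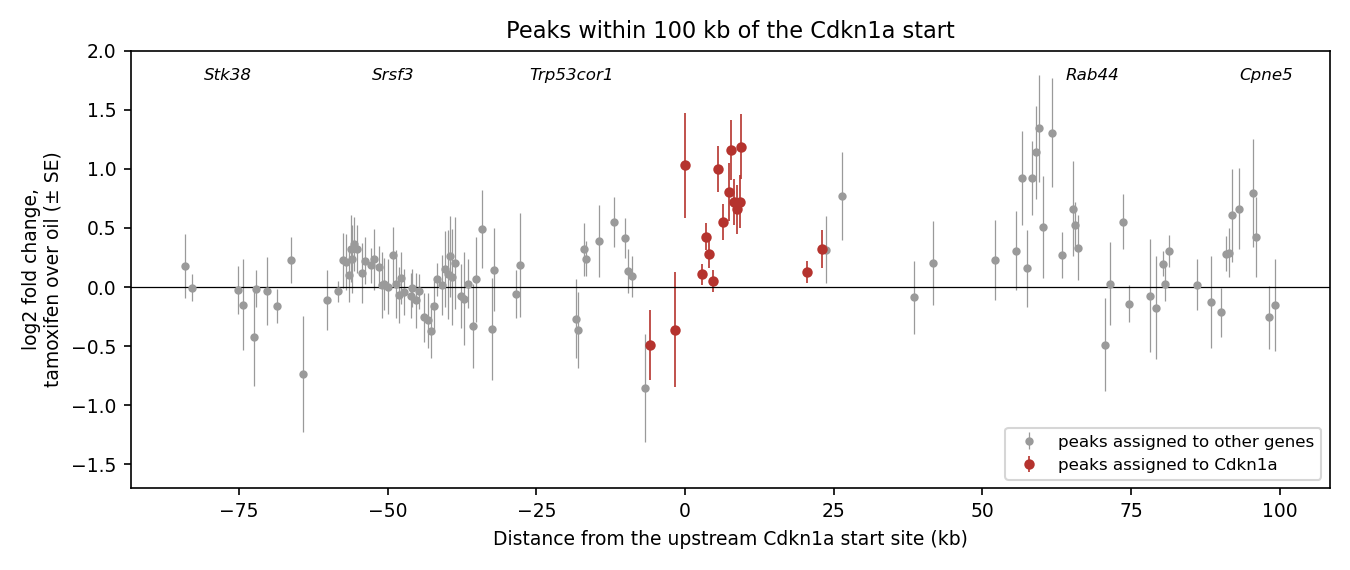
DESeq2 log2 fold change of tamoxifen over oil (± SE) for every peak within 100000 bp of the upstream Cdkn1a start, with gene names above the mean position of their peaks. Of the 104 grey peaks of other genes 0 passed DESeq2's adjusted p and 2 edgeR's, and the Rab44 peaks near 60 kb with values of 0.92 to 1.34 have wide error bars.

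Among the other CDK inhibitor genes, 2 of 66 peaks rose and 0 fell, 3.03% and 0% beside 1.22% and 0.167% of all peaks, and the median log2 change was 0.00. In edgeR the counts were 4 and 0, 6.06% and 0% beside 2.40% and 0.521% of all peaks, and without adjustment 9 and 1 peaks had p under 0.05, 13.6% and 1.52% beside 6.18% and 2.84%. Both were distal peaks of the Ink4 locus, whose proteins inhibit the cyclin D kinases Cdk4 and Cdk6. An intergenic peak 69857 bp from the start of Cdkn2a held 88.9 ± 14.1 tags in oil and 169.8 ± 39.04 after tamoxifen (SD, n = 3 each), a log2 change of 0.94 (SE 0.201, DESeq2 adjusted p = 9.31e-04). A peak -56020 bp from the start of Cdkn2b held 22.6 ± 3.73 and 51.3 ± 12.4 tags (SD, n = 3 each), a log2 change of 1.16 (SE 0.331, DESeq2 adjusted p = 0.0378). The start peak of Cdkn1b, which encodes the related inhibitor p27, held 578.5 ± 37.4 and 588.6 ± 25.1 tags (SD, n = 3 each).

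Of the genes for the kinases, cyclins, Rb and E2F proteins and replication factor PCNA on which p21 acts, directly or through the kinases, 1 of 243 peaks rose and 0 fell, 0.412% and 0% beside 1.22% and 0.167% of all peaks, and the median was -0.04. In edgeR the counts were 1 and 1, 0.412% each beside 2.40% and 0.521% of all peaks, and without adjustment 6 and 12 peaks had p under 0.05, 2.47% and 4.94% beside 6.18% and 2.84%. The peak that rose was in intron 6 of E2f2, a transcription factor of the entry into S phase, with 71.4 ± 3.49 tags in oil and 128.6 ± 41.2 after tamoxifen (SD, n = 3 each), a log2 change of 0.83 (DESeq2 adjusted p = 0.0265).

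Genes for regulators known to act on Cdkn1a had 644 peaks from 24 of 25 genes, Trp63 having none, and 7 rose and 2 fell, 1.09% and 0.311% of them beside 1.22% and 0.167% of all peaks, with a median of 0.04. The share of peaks that rose in the DESeq2 fit was thus near that of all peaks. In edgeR the counts were 12 and 6, 1.86% and 0.932% beside 2.40% and 0.521% of all peaks. Without adjustment 50 and 20 peaks had p under 0.05, 7.76% and 3.11% beside 6.18% and 2.84%. The start peaks of the p53 axis did not pass the adjusted p, with log2 changes of -0.13 (SE 0.0855) for Trp53 and -0.02 (SE 0.0866) for Mdm2, the ligase that degrades p53. A peak in intron 1 of Mdm4, an inhibitor of p53, held 24.3, 39.5 and 40.3 tags in oil and 96.7, 89.7 and 117.3 after tamoxifen, a log2 change of 1.54 (SE 0.257, DESeq2 adjusted p = 2.02e-06). All tamoxifen libraries were above all oil libraries there, replicate 4 the highest. Runx1, whose human counterpart is part of the AML1-ETO fusion, had 4 higher peaks and 1 lower among its 255, beside 1.22% and 0.167% of all peaks. Its peak with the smallest adjusted p lay -45719 bp from the Runx1 start with 242.8 ± 7.77 and 385.4 ± 55.6 tags (SD, n = 3 each), a log2 change of 0.66 (DESeq2 adjusted p = 9.50e-05). Interferon regulatory factor gene Irf1 had 1 higher peak at 24952 bp with a log2 change of 0.98 (DESeq2 adjusted p = 0.0173). Gfi1, a transcriptional repressor of blood progenitors, had 1 higher peak near its start at 0.62 (DESeq2 adjusted p = 0.0367). The Sp1 relative Sp3 had 1 lower peak, -68761 bp from its start, with a log2 change of -0.94 (DESeq2 adjusted p = 0.00943).

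By the sum of its tags over the 6 libraries, Cdkn1a was most like Arhgef28, Col6a3, Slc22a21, Eya2 and Mcf2l, with Pearson correlations of log2 sums of 0.998 to 1.00 among 11419 genes with at least 5 peaks. Many genes were almost as close, with 480 above a correlation of 0.95. The correlations are over 6 libraries that include both groups and share their depth, and the order of tamoxifen 1 and 3 high and 4 lower appeared in all 5 genes. Eya2 had sums of 680.1, 646.0 and 648.2 in oil and 1305, 1332 and 927.4 after tamoxifen, a larger change than that of Cdkn1a at a log2 ratio of 0.85.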

How the data were processed

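Per the labels and the study's methods, the authors aligned ATAC-seq reads to mm10 with Bowtie2 and used HOMER to call peaks in each group, merge them and count tags. Their deposited table holds estimated counts of tags per peak, unnormalised, with at most 3 tags per position and values in steps of 0.5. Bowtie2 and HOMER versions were not given in the sources used here. The authors' annotation gave each peak's gene and distance to a start.

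Tags were rounded and 175929 peaks were fitted together in DESeq2 1.42.0 (R 4.3.3; Wald test, default size factors, Benjamini-Hochberg adjustment over all peaks), after a run on simulated data. Fold changes of members carry an SE, and of the fit's calls on members only counts are given, as a description. edgeR 4.0.16, other size factors, a minimum of 10 tags, distal peaks alone, left-out libraries and a replicate block were alternatives. Replicate numbers 1 and 4 occur in both groups, but deviations of same-numbered libraries correlated at -0.0464 and 0.0581, so the numbers were not taken to pair them. Sequences came from RefSeq GRCm38.p6, the assembly of mm10, with no peak beyond a chromosome's end among 175738 checked. Motifs were searched in the central 200 bp of every peak, and over the full width of the Cdkn1a peaks, with no mismatch allowed.

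Described in full were the peaks nearest each start, the 3 largest and 3 smallest changes and the peak with most tags in each place; in other lists, at most 8 peaks past the adjusted p, and the 5 most alike genes. The members and lists were chosen with earlier results of these data known. The p-values rest on 3 libraries per group. Some lineage marker genes are not reported here.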

Additional observations from a re-analysis of the deposited data

How the results depend on the processing

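The number of Cdkn1a peaks past the adjusted p, 6 of 17, was 8 in edgeR's quasi-likelihood test, 2 when peaks within 3000 bp of a start were left out, and 1 to 9 over fits without 1 library each, the 9 coming without tamoxifen replicate 4. With the replicate block, which leaves 4 libraries with numbers 1 and 4, 0 Cdkn1a peaks passed and 0 were called, as were 0 peaks in each list, while 3 Cdkn1a peaks and 3 of the upstream regulators had an unadjusted p under 0.05, all higher, and 0 in the other lists. The 2 called peaks ranged from 0 to 4 without 1 library. The CDK inhibitor list, 2 peaks, had 4 in edgeR and 0 to 5 without 1 library. The cell cycle list, 1 peak, had 2 in edgeR and 0 to 5, the upstream regulators, 9 peaks, had 18 in edgeR and 2 to 20, and the neighbours, 1 peak, had 4 in edgeR and 0 to 9. The highest of each range came without tamoxifen replicate 4. The lists fell to 0 without oil replicate 2 or tamoxifen replicate 3 (CDK inhibitors), without any library but tamoxifen replicate 4 (cell cycle) and without tamoxifen replicate 3 (neighbours), and the upstream regulators to 2 or 3 without any library but tamoxifen replicate 4. The gene body log2 ratio of 0.47 was 0.76 with a promoter limit of 3000 bp. Summed log2 ratios without 1 library were 0.29 to 0.40 for the locus, 0.22 to 0.27 for the promoter, 0.40 to 0.58 for the gene body and 0.10 to 0.16 for the distal peaks, and no result reversed. Except for the construction of the smaller fits, the cause of these shifts was not tested. The upstream start peak and the upstream peak at -1733 bp had under 30 normalised tags in every library, and the SEs of their log2 changes, 0.446 and 0.489, were the largest of the locus.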
